A study of Mus musculus with 12 samples.

Results

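Collagens are the structural proteins of the extracellular matrix, and the genes that encode their chains were followed through a mouse squamous cell carcinoma, its lung metastases and the effect of irradiating the primary tumour. The members were all features of the array whose gene name begins with Col, a number, the letter a and another number. There were 41 such features among 27962 features by gene name. One of them, Col4a3bp, encodes a ceramide transfer protein and not a collagen, and it was left out, which gave 40 collagen genes. They were grouped into 11 fibrillar collagens, 10 collagens of basement membranes and 19 others. The array held 78 probes for them, 28 genes had more than 1, and the brightest probe stood for each gene.

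Every collagen molecule is a triple helix of alpha chains that is hydroxylated and folded inside the cell, secreted, trimmed at its ends by proteinases and assembled outside the cell. Fibrillar collagens such as types I, III and V form the cross-linked cables of connective tissue, type IV forms the sheet of every basement membrane, and types VII and XVII tie stratified epithelium to the tissue beneath it. In a carcinoma, interstitial collagen is made mainly by fibroblasts, whereas the epithelial cells make much of their own anchoring collagens.

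The study used NR-S1, a squamous cell carcinoma transplanted into the hind leg of male C3H/HeMsNrs mice, which spreads to the lung. The tumour cells were laser-microdissected, and their RNA was amplified before labelling. Treatment was timed from the point at which the tumour measured 7.5 mm across. The unirradiated primary, the gamma-irradiated primary (8 Gy) and the carbon-irradiated primary (5 Gy of carbon ions) were taken 1 week after that point. The unirradiated metastasis, the gamma-group metastasis and the carbon-group metastasis were lung tumours taken 2 weeks after it, and in the last 2 groups it was the leg tumour that had received the dose. Primary tumours came from other mice than the metastases. The labels give 1 RNA for each of the 6 conditions, marked as clone 1, so none of the differences could be tested across animals. Metastases and primaries also differed in the week of sampling.

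RNAs were compared on 12 two-colour arrays as 6 dye swaps, in which the same pair of RNAs was hybridised on 2 arrays with the dyes exchanged. The unirradiated primary was on 10 of these arrays, so every comparison with it shares that RNA. Values are log2 ratios, and each mean is given with the SD over the 2 arrays of its dye swap (n = 2), which measures array and dye error only. A gene counted as measured if, on both arrays, 1 or both RNAs gave a signal well above background, and "rose" or "fell" is used only where the ratio was at least 2-fold in the same direction on both arrays. Differences between metastases were taken through the unirradiated primary. Such differences cancel a gene's dye effect, so their smaller SDs do not mean greater precision. No dye swap was split between slides. The unirradiated and gamma-group metastases shared 1 slide, the carbon-group metastasis shared another with the gamma-irradiated primary, and the carbon-irradiated primary was on the third.

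Most collagen genes were expressed. Of the 40, 28 were well above background in every array channel of the unirradiated primary, 32 in the unirradiated metastasis, 33 in each of the gamma-group and carbon-group metastases, and 31 in each irradiated primary. Col9a1, Col24a1 and Col28a1 were not measured in any of the 6 direct comparisons. The tumour label was borne out by the keratinocyte markers, of which 10 or 11 of 11 were above background in every RNA, with a summed level, the log2 of their added signals, of 19.19 to 19.93.

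Other cells were also represented, and their markers differed between the RNAs. Lung epithelial markers rose for 10 of 12 in the unirradiated metastasis and for 11 of 12 in each of the others, and 7 of them, including Sftpc and Ager, were never above background in either irradiated primary. The summed log2 level of the 12 was 19.13 to 19.96 in the metastases, 15.82 to 16.66 in the unirradiated primary and 15.15 to 15.86 in the irradiated primaries. Endothelial markers rose for 10, 7 and 7 of 11 in the unirradiated, gamma-group and carbon-group metastases. Fibroblast markers rose for 7, 4 and 3 of 15 and fell for 0, 1 and 2 in the same order. Their summed log2 level was 14.64 to 14.99 in metastases, 15.02 to 15.04 in the unirradiated primary and 15.18 to 15.52 in the irradiated primaries. The medians of the list went the other way in the irradiated primaries, at -0.167 after gamma rays and -0.268 after carbon ions. None of its markers rose there, and Twist2 fell after gamma rays. Skeletal muscle markers fell for 11 of 12 in each metastasis and in the gamma-irradiated primary, and for 5 of 12 in the carbon-irradiated primary. The part of these cells in the collagen results was not tested. In such samples fewer cells of a type cannot be told apart from less RNA per cell.

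As a class, collagens did not move one way. In the unirradiated metastasis 4 of the 36 measured rose and 3 fell, while 10.4% of all 17229 measured features rose and 1.68% fell. The share of collagens that rose, 11.1%, was therefore near the background. The share that fell, 8.33%, was above it but rests on 3 genes. With Feature Extraction's own log ratios the split was 4 higher and 8 lower, beside 2377 and 881 of all 17229 features. With median centring it was 1 higher and 2 lower, beside 1300 and 185. In the gamma-group metastasis 2 of 35 (5.71%) rose and 3 (8.57%) fell, against 8.8% and 1.1% of all features. In the carbon-group metastasis 2 of 34 (5.88%) rose and 3 (8.82%) fell, against 8.19% and 1.02%. The gamma-irradiated primary had 2 of 32 higher and 0 lower, where 2.22% of all features were higher and 1.25% lower. In the carbon-irradiated primary 5 of 32, or 15.6%, rose and 0 fell, against 3.88% and 1.07%. No collagen differed at least 2-fold between the carbon-irradiated and gamma-irradiated primaries (0 higher and 0 lower of 31), where 0.879% and 0.159% of all features did.

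Between metastases, 0 of 32 collagens rose and 3 fell in the gamma group against the unirradiated metastasis, with 1.85% and 1.4% of all features. In the carbon group 2 of 32 rose and 2 fell, with 1.85% and 2.37% of all features. Against the gamma-group metastasis, 1 of 33 was higher in the carbon group and 0 were lower, with 0.249% and 1.06% of all features. The medians of the measured collagens stayed near 0 in the 9 comparisons, between -0.22 and 0.16, and those of all features measured between -0.03 and 0.06. The collagens that did change are therefore described one by one below, by the structure they build.

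**Figure D1:**
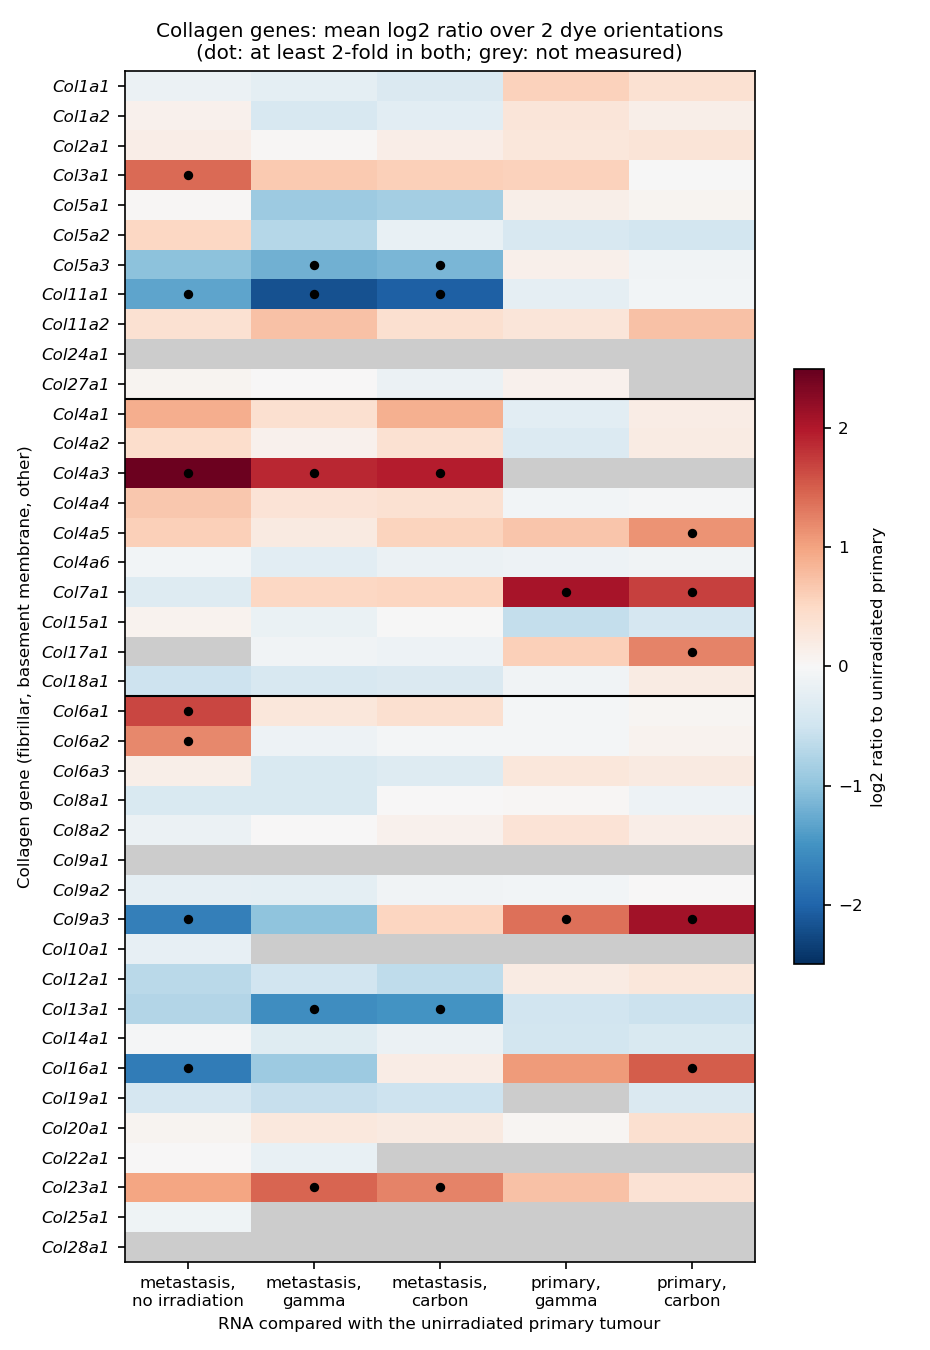
Mean log2 ratio of each of the 40 collagen genes (rows, by structural class) in 5 RNAs (columns) against the unirradiated primary, with red for higher, blue for lower, grey for not measured and a dot where the ratio was at least 2-fold on both arrays. Dots are sparse, blue dots lie only in the metastasis columns, and the 5 dots of the carbon-irradiated primary are all red.

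The major fibrillar collagen, type I, was nearly level across the series. The Col1a1 ratio, for the alpha 1 chain, was -0.25 and -0.05 on the 2 arrays of the unirradiated metastasis, -0.38 and -0.12 in the gamma group, and -0.50 and -0.21 in the carbon group. The Col1a1 ratio was 0.41 and 0.73 in the gamma-irradiated primary and 0.21 and 0.55 in the carbon-irradiated primary. With this brightest probe all 6 metastasis arrays lay below 0 and all 4 arrays of irradiated primaries above it, but no value reached 2-fold. Another measured probe kept these signs on all of the arrays. A further measured probe did not. It gave -0.18 and 0.06 in the unirradiated metastasis, -0.03 and 0.27 in the gamma-irradiated primary, and -0.10 and -0.08 in the carbon-irradiated primary. Col1a2, which encodes the partner alpha 2 chain, had means of 0.11 ± 0.15, -0.41 ± 0.23 and -0.27 ± 0.25 in the metastases and 0.29 ± 0.27 and 0.15 ± 0.19 in the irradiated primaries. Its arrays in the unirradiated metastasis straddled 0.

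Col3a1 encodes type III collagen, the fibril of vessel walls, lung and healing tissue, and it rose in the unirradiated metastasis. Its ratio was 1.46 and 1.38 on the 2 arrays there, a mean of 1.42 ± 0.06 or 2.68-fold. In the gamma group the arrays gave 0.65 and 0.66, and in the carbon group 0.56 and 0.62. The unirradiated metastasis was thus the highest of the 3 on both arrays, and the carbon group differed from the gamma group by -0.06 ± 0.03. The differences from the unirradiated metastasis, -0.77 ± 0.07 and -0.83 ± 0.09, did not reach 2-fold. In the gamma-irradiated primary Col3a1 was at 0.57 ± 0.06 and in the carbon-irradiated primary at -0.01 ± 0.08, and the direct comparison of carbon with gamma gave -0.65 ± 0.06. The rise in the metastasis rests on the brightest probe. A dimmer probe that was also measured gave 0.09 there, and the mean of all probes, 0.50, ended the call. Median centring ended it too (1.17, with 1 array under the threshold).

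Type V collagen starts type I fibrils and sets their thickness, and 1 of its 3 chains, Col5a2, was called between metastases. Col5a1 was at 0.04 and 0.03 in the unirradiated metastasis but at -0.84 and -0.98 in the gamma group and -0.81 and -0.88 in the carbon group. With this brightest probe all 4 arrays of the metastases from irradiated mice lay below both arrays of the unirradiated one, although none of these differences was called. A second measured probe of Col5a1 gave -0.19 and 0.06 in the unirradiated metastasis and -0.56 and -0.15 in the carbon group, so these overlapped. The gamma group stayed below the unirradiated metastasis with that probe. Col5a2 fell in the gamma-group metastasis against the unirradiated one, by 1.24 ± 0.03 on the log2 scale, and was at -0.72 ± 0.08 in the carbon group against it. In the first of these comparisons Col5a3 was at -0.18 ± 0.06 and the type I chain Col1a2 at -0.51 ± 0.08, both below 0 on both arrays. Col5a2 is the neighbour of Col3a1 on chromosome 1, and the neighbours had means of 0.53 and 1.42 in the unirradiated metastasis, -0.72 and 0.65 in the gamma group and -0.20 and 0.59 in the carbon group. Both were lower in the metastases from irradiated mice than in the unirradiated one.

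Col5a3, the least widespread type V chain, was below the unirradiated primary on all 6 metastasis arrays. It fell in the gamma group (-1.08 and -1.31, mean -1.20 ± 0.16) and in the carbon group (-1.09 and -1.20, mean -1.15 ± 0.08). In the unirradiated metastasis it was at -0.86 and -1.17, which missed the threshold on 1 array, so the groups overlapped. The irradiated primaries were at 0.13 ± 0.08 and -0.08 ± 0.05. The Col5a3 calls were lost with scaling between arrays (-1.01 and -0.98), with median centring, where the mean was larger but the arrays lay further apart, and with the mean of all probes (-0.60 in each), in which the second probe was not measured.

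Col11a1, the alpha 1 chain of the minor fibril collagen XI that is best known from cartilage, had the lowest value of any collagen in the gamma-group and carbon-group metastases. Its ratio was -1.26 and -1.37 in the unirradiated metastasis, -2.08 and -2.26 in the gamma group, and -1.91 and -2.17 in the carbon group. The means were -1.32 ± 0.07, -2.17 ± 0.13 and -2.04 ± 0.18, or 2.49-fold, 4.5-fold and 4.11-fold lower than in the unirradiated primary. Both metastases from irradiated mice lay below the unirradiated one on every array, with differences of -0.85 ± 0.06 and -0.72 ± 0.11. In the irradiated primaries Col11a1 was level, at -0.23 ± 0.14 and -0.06 ± 0.29. The call in the unirradiated metastasis was lost with median centring (-1.36, 1 array under the threshold) and with the mean of all probes (-0.66), whose second probe was not measured. Col11a2, its partner chain, was never called and was above 0 in all 5 RNAs, from 0.31 to 0.73.

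Type VI collagen builds beaded microfibrils around cells from 1 chain each of alpha 1, alpha 2 and a further chain, here Col6a3. Col6a1 rose in the unirradiated metastasis, with 1.72 and 1.62 on the arrays and a mean of 1.67 ± 0.07, or 3.18-fold. Col6a2 rose there too, with 1.07 and 1.31 and a mean of 1.20 ± 0.17. Col6a3 was at 0.01 and 0.30, a mean of 0.15 ± 0.21, and was not called. The 3 chains therefore differed in the size of their ratio in the same RNA.

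The rise of Col6a1 and Col6a2 was not seen in the metastases of irradiated mice. Col6a1 was at 0.22 and 0.33 in the gamma group and 0.41 and 0.40 in the carbon group, and Col6a2 at -0.19 and -0.07 and at -0.20 and 0.11. No array of either group overlapped those of the unirradiated metastasis. Against the unirradiated metastasis Col6a1 fell by 1.40 ± 0.15 in the gamma group and by 1.26 ± 0.06 in the carbon group, and Col6a2 fell by 1.33 ± 0.09 and 1.24 ± 0.05. The first of these comparisons lay within 1 slide and the second across slides, and the values were alike. Col6a3 had -0.54 ± 0.03 and -0.48 ± 0.01 in the same comparisons. In the irradiated primaries the 3 chains lay between -0.06 and 0.28. A second probe of Col6a2 gave 1.02 in the unirradiated metastasis and -0.71 and -0.73 for the falls, so that the mean of all probes kept the direction but ended the calls of the falls (-1.02 and -0.98). The rise of Col6a1 was no longer called with median centring (1.55), and that of Col6a2 was no longer called with median centring, scaling or Feature Extraction's own log ratio (1.06 to 1.14).

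Col6a1 and Col6a2 are neighbours on chromosome 10, with 85161 bases between them and the same direction of transcription. Because they rose and fell together, the 250 bases before each start are shown from RefSeq (GRCm38.p6), both on the minus strand, at chr10:76726045-76726294 and chr10:76623631-76623880. Capitals mark matches to any of 5 motifs, searched on both strands: CCAAT (the CCAAT box), GGGCGG (the GC box), TATAAA (the TATA box), TGANTCA (an AP-1 site) and the interferon-stimulated element.
Col6a1: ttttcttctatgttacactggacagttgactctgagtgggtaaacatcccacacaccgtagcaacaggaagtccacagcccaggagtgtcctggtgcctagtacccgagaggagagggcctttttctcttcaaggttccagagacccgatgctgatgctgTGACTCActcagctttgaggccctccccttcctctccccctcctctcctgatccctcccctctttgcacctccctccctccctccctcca
Col6a2: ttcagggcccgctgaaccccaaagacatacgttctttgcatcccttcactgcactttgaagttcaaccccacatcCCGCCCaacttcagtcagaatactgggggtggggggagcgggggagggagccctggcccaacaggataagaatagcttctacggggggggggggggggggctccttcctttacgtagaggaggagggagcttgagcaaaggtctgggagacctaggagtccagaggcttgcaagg
The Col6a1 window held 1 AP-1 match and no other, and the Col6a2 window held 1 GC box, here read on the opposite strand. Thus the same letters were not found in both. Among the promoters of 27025 genes, 7.82% held TGANTCA and 35.4% held GGGCGG. A match is a description of the letters and not evidence that a factor binds.

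Some cell type markers were higher in the unirradiated metastasis than in the other metastases, as were Col3a1, Col6a1 and Col6a2. The fibroblast list as a whole had medians of 0.435, -0.050 and -0.087 in the unirradiated, gamma-group and carbon-group metastases. Its summed log2 level in the unirradiated metastasis, 14.91 to 14.99, lay below that of the unirradiated primary, 15.02 to 15.04. Of the fibroblast markers Pdgfra, a growth factor receptor of mesenchymal cells, was at 2.78 ± 0.25, 1.65 ± 0.22 and 1.48 ± 0.28 in the unirradiated, gamma-group and carbon-group metastases, and fell by 1.13 ± 0.02 and 1.30 ± 0.03 in the 2 comparisons with the unirradiated metastasis. In those comparisons 1 and 2 of the 15 fibroblast markers fell and none rose. Of 9 macrophage markers 3 fell in each, with medians of -0.64 and -0.96, and of 11 endothelial markers 0 and 3 fell, with medians of -0.54 and -0.43. The list for mesothelium, the lining of the lung surface, held 5 markers. Of these, 4 rose in the unirradiated metastasis and the same 4 fell in each of the other metastases against it. They were Msln, Upk3b, Wt1 and Lrrn4, which the array names B430119L13Rik, and the remaining marker was Krt19. The summed log2 level of all 5 was 15.91 to 16.11 in the unirradiated metastasis and 15.23 to 15.40 in the others. It was 15.02 to 15.24 in the unirradiated primary, where 2 or 3 of the 5 were above background. In the irradiated primaries it was 13.53 to 13.73. There Msln and Krt19 fell, and Upk3b, Wt1 and Lrrn4 were never above background. The part of these cell types in the collagen differences was not tested.

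**Figure D2:**
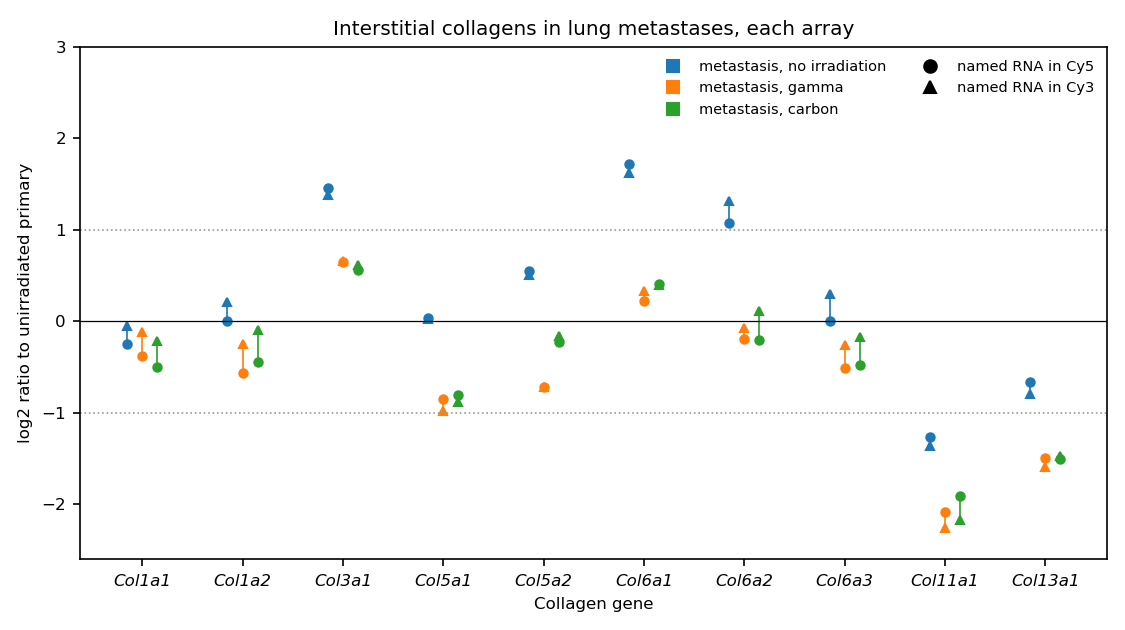
Log2 ratio to the unirradiated primary of 10 collagen genes in the 3 metastases, interstitial except for the transmembrane Col13a1. There is 1 symbol per array, circles with the metastasis RNA in Cy5 and triangles with it in Cy3, joined within a dye swap. Dotted lines mark a 2-fold difference. Col3a1, Col6a1 and Col6a2 are above the upper line in the unirradiated metastasis alone. Col11a1 is below the lower line on all 6 arrays, and Col13a1 on both arrays of the gamma and carbon groups.

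The type IV chains of basement membranes come as gene pairs that lie head to head and are assembled into different networks: alpha 1 with alpha 2 everywhere, alpha 3, 4 and 5 in kidney and lung, and alpha 5 with 6 beneath some epithelia. Col4a1 was at 0.86 and 0.96 in the unirradiated metastasis, 0.30 and 0.48 in the gamma group, and 0.81 and 0.98 in the carbon group. Its neighbour Col4a2 was at 0.33 and 0.56, 0.02 and 0.19, and 0.27 and 0.49. In both genes the gamma group was the lowest of the metastases on both arrays, and the other metastases overlapped. No value reached 2-fold. In the irradiated primaries both chains were below 0 after gamma rays, at -0.27 ± 0.07 and -0.35 ± 0.11, and above 0 after carbon ions, at 0.18 ± 0.08 and 0.20 ± 0.16. The arrays that set carbon directly against gamma gave 0.45 ± 0.08 and 0.52 ± 0.12. The second probe of Col4a1 gave 0.84, 0.41 and 0.77 in the metastases, and that of Col4a2 gave 0.44, 0.00 and 0.27.

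Col4a3 had the highest ratio of any collagen in each metastasis. Its arrays read 2.57 and 2.33 in the unirradiated metastasis, 1.88 and 1.90 in the gamma group, and 1.95 and 1.97 in the carbon group, and it rose in all 3. The unirradiated metastasis had a mean of 2.45 ± 0.17, or 5.48-fold. However, the unirradiated primary was above background in only 3 of its 10 channels, with log2 levels of 5.95 to 6.59. The size of each of these ratios therefore rests on a reference signal near background. In the gamma-group comparison the primary RNA was above background on 1 of the 2 arrays and the mean was 1.89 ± 0.01. In the carbon-group comparison it was above background on neither, so the difference of 1.96 ± 0.01 is a bound of at least 3.88-fold. In this bound the dim side is the higher of the probe's own signal and the lowest signal well above background on that array. In both irradiated primaries the probe was never above background, and Col4a3 was not measured. A second probe, measured in the metastases, gave 2.03, 1.10 and 1.43. Another was at background throughout, and with the mean of all 3 probes the call in the gamma group was lost (0.98).

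Col4a4, which encodes the partner of the alpha 3 chain and overlaps Col4a3 by 114 bases at their starts on chromosome 1, depended on the probe. The brightest probe gave 0.68 ± 0.12, 0.34 ± 0.15 and 0.38 ± 0.20 in the unirradiated, gamma-group and carbon-group metastases and was not called. The dimmer probe gave 2.40, 1.88 and 2.19, close to the Col4a3 values, and its 6 array values ran from 1.65 to 2.75. In the irradiated primaries the brightest probe was at -0.08 ± 0.24 and -0.02 ± 0.24, and the dimmer one was not measured. Col4a6 showed the same kind of split, with -0.07, -0.26 and -0.15 for the brightest probe and 1.10, 0.84 and 1.12 for another. Lung epithelial markers rose in the same 3 RNAs, with medians of 4.27, 4.28 and 4.49. Endothelial markers had medians of 2.23, 1.61 and 1.73 there. The part of both in the type IV values was not tested.

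Col4a5 was the type IV chain that rose in an irradiated primary. It was at 1.16 and 1.10 in the carbon-irradiated primary, a mean of 1.13 ± 0.04 or 2.19-fold, and at 0.76 and 0.61 in the gamma-irradiated primary. Carbon against gamma gave 0.54 ± 0.05, so the carbon value was the higher on every array, without reaching 2-fold. The unirradiated primary was above background on 1 of the 2 arrays in each of these comparisons with it. In the metastases Col4a5 was at 0.60 ± 0.08, 0.22 ± 0.02 and 0.55 ± 0.12. With Feature Extraction's own log ratio Col4a5 passed the threshold also in the unirradiated metastasis (1.33), the carbon-group metastasis (1.29) and the gamma-irradiated primary (1.67), and with an offset of 0 in the first and last of these (1.13 and 1.24). Its neighbour Col4a6, 1274 bases away on chromosome X, was at -0.13 ± 0.11 and -0.09 ± 0.11 in the irradiated primaries.

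**Figure D3:**
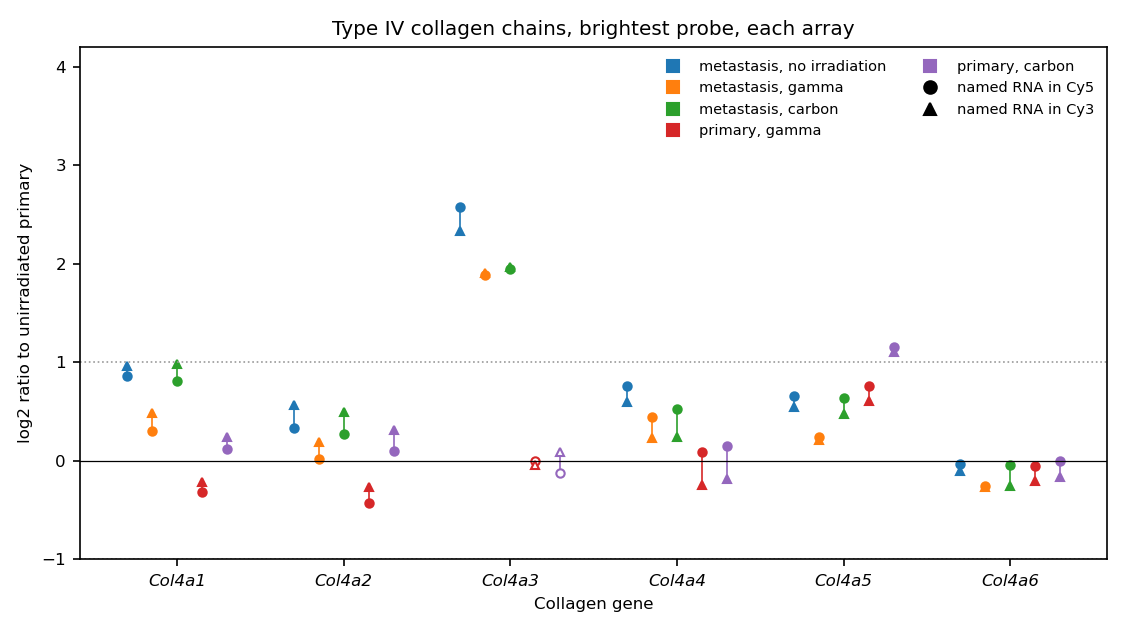
Log2 ratio to the unirradiated primary of the 6 type IV collagen chains, brightest probe, in 5 RNAs, 1 symbol per array (circle with the named RNA in Cy5, triangle in Cy3, open where not measured). Col4a3 is above the dotted 2-fold line in all 3 metastases, and Col4a5 is above it in the carbon-irradiated primary.

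Types VII and XVII are made by stratified epithelium itself. Col7a1, whose product forms the anchoring fibrils below the epidermis, rose in both irradiated primaries. The arrays read 2.15 and 1.96 after gamma rays, a mean of 2.05 ± 0.14 or 4.16-fold, and 1.75 and 1.68 after carbon ions, a mean of 1.71 ± 0.05 or 3.28-fold. On the arrays of carbon against gamma it was at -0.41 and -0.30, under 2-fold, so gamma was the higher of the irradiated primaries on both. In the metastases it was at -0.31 ± 0.11 without irradiation, 0.51 ± 0.21 in the gamma group and 0.54 ± 0.11 in the carbon group. The metastases from irradiated mice thus lay above the unirradiated one on every array, by 0.82 ± 0.10 and 0.85 ± 0.002, which did not reach 2-fold. The array had a single Col7a1 probe, and both rises held under every alternative setting tried.

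Col17a1 encodes the transmembrane collagen of hemidesmosomes, and it rose in the carbon-irradiated primary. It was at 1.29 and 1.18 there, a mean of 1.24 ± 0.08, and at 0.64 and 0.54 in the gamma-irradiated primary. Carbon against gamma gave 0.75 and 0.65, so all arrays placed carbon above gamma and gamma above the unirradiated primary. In the gamma-group and carbon-group metastases it was at -0.09 ± 0.002 and -0.12 ± 0.08. In the unirradiated metastasis the brightest probe was flagged on 1 array and Col17a1 was not counted as measured, while a second probe, measured in all comparisons, gave -0.90 there and 0.38 and 0.88 in the irradiated primaries. The call after carbon was lost with the mean of all probes, where 1.06 remained with 1 array under the threshold, and with median centring (1.12). Keratinocyte markers rose for 0 of 11 in both irradiated primaries, with medians of 0.11 and 0.14, and 1 of them (Krt16) fell after carbon ions.

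The other collagens of basement membranes were not called. Col18a1, the source of endostatin, was at -0.52 ± 0.19, -0.40 ± 0.19 and -0.37 ± 0.30 in the metastases, below the unirradiated primary on all 6 arrays, and at -0.09 ± 0.19 and 0.20 ± 0.22 in the irradiated primaries. Col15a1, its relative in vessel and muscle basement membranes, was at -0.59 ± 0.08 and -0.41 ± 0.002 in the irradiated primaries and between -0.17 and 0.09 in the metastases.

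Col9a3 and Col16a1 belong to the collagens that sit on the surface of fibrils, and they showed the widest range over the RNAs. Col9a3 encodes the alpha 3 chain of type IX, which coats cartilage fibrils. It was at -1.86 and -1.57 in the unirradiated metastasis and at -1.18 and -0.84 in the gamma group. It stood at 0.30 and 0.76 in the carbon group, at 1.27 and 1.49 in the gamma-irradiated primary, and at 1.95 and 2.25 in the carbon-irradiated primary. No pair of RNAs next to each other in that order overlapped. The means were -1.72 ± 0.21, -1.01 ± 0.24, 0.53 ± 0.32, 1.38 ± 0.15 and 2.10 ± 0.21, and Col9a3 fell in the unirradiated metastasis by 3.29-fold and rose 2.6-fold and 4.28-fold in the irradiated primaries. The gamma-group value missed the threshold on 1 array.

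Col16a1, which encodes type XVI, followed the same order with its brightest probe. Its arrays read -1.89 and -1.59 in the unirradiated metastasis, -1.05 and -0.76 in the gamma group and -0.06 and 0.44 in the carbon group. They read 0.86 and 1.27 in the gamma-irradiated primary and 1.34 and 1.69 in the carbon-irradiated primary. Again no neighbours in the order overlapped. It fell in the unirradiated metastasis (-1.74 ± 0.21, 3.34-fold) and rose in the carbon-irradiated primary (1.51 ± 0.25, 2.86-fold). The mean of 1.06 ± 0.29 in the gamma-irradiated primary was not called because 1 array was under the threshold.

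Between metastases Col9a3 rose in the carbon group against the unirradiated metastasis (2.17 and 2.33, mean 2.25 ± 0.11, 4.74-fold) and against the gamma group (1.48 and 1.60, mean 1.54 ± 0.08, 2.91-fold). Col16a1 rose against the unirradiated metastasis (1.84 and 2.03, mean 1.93 ± 0.14, 3.81-fold). Against the gamma group it was at 0.99 and 1.20, with 1 array just under the threshold. The gamma group stood above the unirradiated metastasis by 0.71 ± 0.03 in Col9a3 and 0.83 ± 0.01 in Col16a1, which was not called. Since the carbon-group arrays were on another slide than those of the other metastases, slide and group cannot be told apart for these carbon-group differences.

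The probes limit the Col16a1 result. Its second probe kept the sign in 4 of the 5 RNAs and was nearer 0 in those. It was at -0.52, -0.56 and -0.29 in the metastases and 0.18 and 0.14 in the irradiated primaries. The order was not kept by this probe. Its gamma-group value lay below that of the unirradiated metastasis, and its carbon-irradiated primary value below the gamma-irradiated one. With the mean of both probes the calls in the unirradiated metastasis (-1.13) and the carbon-irradiated primary (0.83) were lost, and median centring also ended the latter (1.39). Col9a3 had 1 probe, and only median centring ended one of its calls against the unirradiated primary, that in the gamma-irradiated primary, where the mean was 1.39 with 1 array under the threshold.

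Other cartilage collagens had a narrower range. Col2a1, the main fibril of cartilage, lay between 0.02 and 0.32 in the 5 RNAs with its brightest probe. Another measured probe gave a wider range and was highest in the unirradiated metastasis. It was at 0.80, 0.20 and 0.20 in the unirradiated, gamma-group and carbon-group metastases and at 0.36 and 0.09 in the gamma-irradiated and carbon-irradiated primaries. Col9a2, another chain of type IX, had means of -0.23, -0.24, -0.09, -0.07 and 0.01 in the order given for Col9a3, close to the same order, but its arrays overlapped between neighbours in it and none was called. Of 13 markers of cartilage, bone and tendon, Matn1, Matn3, Ibsp, Sp7 and Tnmd were never above background in any RNA, and the summed log2 level of the list was 12.56 to 12.57 in the unirradiated metastasis, 13.19 to 13.23 in the gamma group, 13.51 to 13.58 in the carbon group, 13.18 to 13.26 in the unirradiated primary, and 13.55 to 14.09 in the irradiated primaries. The medians of the measured markers of this list were -0.271, -0.009, 0.270, -0.113 and -0.204 in the order given for Col9a3. The list medians thus did not climb throughout in that order. Within the list Sox9, a transcription factor of cartilage and of several epithelia, fell in the unirradiated metastasis (-1.20 ± 0.16). It was at 0.15 ± 0.10, 0.48 ± 0.02, 0.84 ± 0.21 and 1.13 ± 0.28 in the gamma group, the carbon group, the gamma-irradiated primary and the carbon-irradiated primary. Its part in the collagen values was not tested. Col20a1, which like Col9a3 lies on chromosome 2, was at 0.08, 0.26, 0.22, 0.05 and 0.40 in the same order of RNAs as above and was never called.

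**Figure D4:**
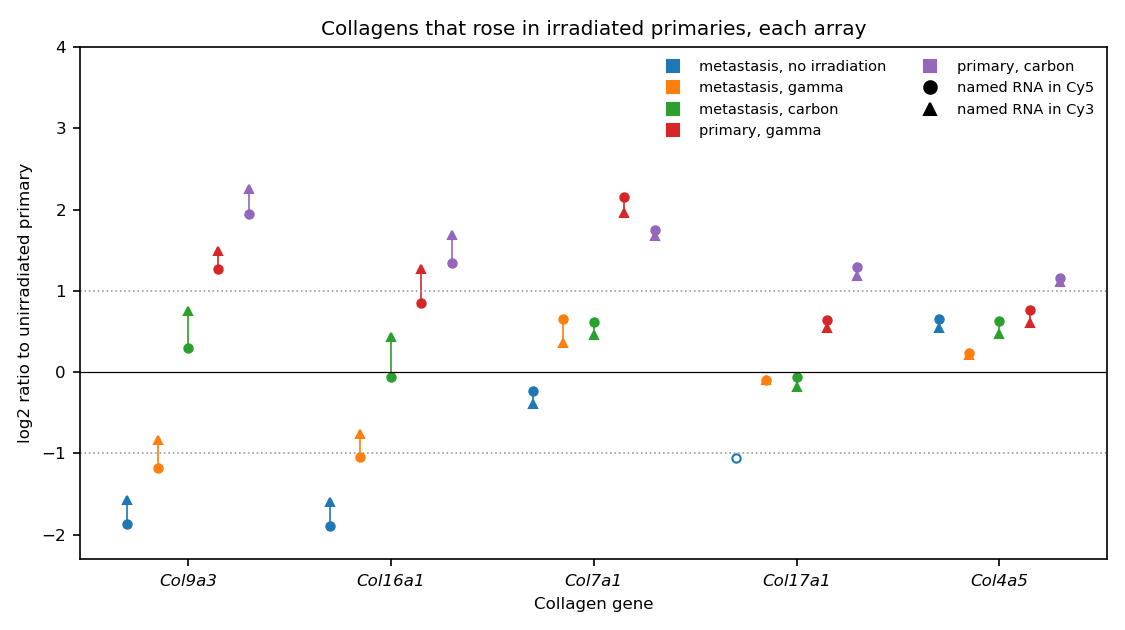
Log2 ratio to the unirradiated primary of the 5 collagen genes that rose in an irradiated primary, in 5 RNAs, 1 symbol per array (circle with the named RNA in Cy5, triangle in Cy3, open where not measured). For Col9a3 and the brightest probe of Col16a1 the RNAs climb in one order from the unirradiated metastasis to the carbon-irradiated primary, whereas Col7a1 is highest in the gamma-irradiated primary.

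Of the 5 collagens that rose in the carbon-irradiated primary, the 250 bases before the starts of Col7a1, Col17a1 and Col16a1 are shown in the same way, to set the epithelial anchoring collagens beside a fibril-associated one, at chr9:108953336-108953585 on the plus strand, chr19:47692043-47692292 on the minus strand and chr4:130047590-130047839 on the plus strand (GRCm38.p6).
Col7a1: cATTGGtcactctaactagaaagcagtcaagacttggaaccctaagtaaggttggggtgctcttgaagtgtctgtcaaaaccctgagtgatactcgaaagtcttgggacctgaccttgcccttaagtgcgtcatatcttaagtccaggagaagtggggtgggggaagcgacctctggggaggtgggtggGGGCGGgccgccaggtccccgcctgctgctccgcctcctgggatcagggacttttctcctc
Col17a1: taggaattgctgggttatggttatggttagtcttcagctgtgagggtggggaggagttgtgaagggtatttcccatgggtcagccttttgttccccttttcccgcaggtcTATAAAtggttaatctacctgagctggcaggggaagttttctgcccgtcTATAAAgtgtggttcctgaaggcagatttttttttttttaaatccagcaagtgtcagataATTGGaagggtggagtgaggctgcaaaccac
Col16a1: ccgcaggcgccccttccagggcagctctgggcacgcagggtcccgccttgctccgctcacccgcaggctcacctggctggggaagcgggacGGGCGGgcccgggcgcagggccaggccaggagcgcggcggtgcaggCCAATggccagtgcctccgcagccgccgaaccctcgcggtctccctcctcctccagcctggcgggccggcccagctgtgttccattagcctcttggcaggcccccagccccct
The Col7a1 and Col16a1 windows each held 1 CCAAT box and 1 GC box, and the Col17a1 window held 1 CCAAT box and 2 TATA boxes. The Col16a1 window also lies wholly within the annotated span of Gm12963, a long non-coding RNA gene, and its last 23 bases lie within the annotated Col16a1 gene. Col4a5, whose window held a CCAAT box and a GC box, and Col9a3 are not shown. None of the 3 held a match to the AP-1 or interferon-stimulated motif, which says only that these letters were not in the window. Windows were found for 32 of the 40 collagen genes. Among those, 12 (37.5%) held a CCAAT box, 18 (56.2%) a GC box, 5 (15.6%) a TATA box, 1 (3.12%) an AP-1 match and 0 an interferon-stimulated match, beside 37.5%, 35.4%, 14.3%, 7.82% and 3.46% of the 27025 genes.

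Among the transmembrane collagens, Col13a1 and Col23a1 went opposite ways in the metastases. Col13a1 encodes type XIII, found at cell adhesions, and it fell in the gamma group (-1.49 and -1.59, mean -1.54 ± 0.07, 2.92-fold) and in the carbon group (-1.51 and -1.48, mean -1.49 ± 0.02, 2.81-fold). In the unirradiated metastasis it was at -0.67 and -0.79, above all 4 of those arrays, and in the irradiated primaries at -0.48 ± 0.04 and -0.53 ± 0.08. Every array of these 5 RNAs was below the unirradiated primary. Its second probe gave -0.27, -0.74 and -0.68 in the metastases, and with the mean of both probes the carbon-group call was lost (-1.09).

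Col23a1, which encodes type XXIII, rose in the gamma group (1.45 and 1.44, mean 1.45 ± 0.01, 2.73-fold) and the carbon group (1.28 and 1.18, mean 1.23 ± 0.07, 2.35-fold). It was at 1.06 and 0.91 in the unirradiated metastasis, under the threshold on 1 array, and at 0.73 ± 0.11 and 0.37 ± 0.02 in the irradiated primaries. With the brightest probe of Col23a1 all arrays were above 0. Its other probes gave 1.21 and 0.18 in the gamma group and 0.82 and 0.07 in the carbon group, and both calls were lost with the mean of all probes (0.95 and 0.71) and with median centring (1.33 and 1.15).

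Members that were never called completed the class. Among those named above and the others measured, the uncalled values ran from -1.02 to 0.99 in the unirradiated metastasis. Of the other fibril-associated genes, Col12a1 and Col14a1, whose products decorate type I fibrils, were at -0.67 ± 0.18 and -0.04 ± 0.15 in the unirradiated metastasis and at 0.27 ± 0.05 and -0.39 ± 0.21 in the carbon-irradiated primary. Col12a1 was below 0 on all 6 metastasis arrays and above 0 on all 4 arrays of the irradiated primaries. Feature Extraction's own log ratio placed Col12a1 past the threshold in all 3 metastases, at -1.88, -1.39 and -1.57, beside -0.67, -0.48 and -0.63 here, and the cause of the gap was not tested. Col8a1 and Col8a2, the short-chain collagens of vessel walls, lay between -0.38 and 0.35 in the 5 RNAs. Col10a1, Col22a1 and Col25a1 were measured in 1, 2 and 1 of the 6 direct comparisons, and Col19a1 and Col27a1 in 4 each. Col19a1, which encodes type XIX, was above background in no RNA but the unirradiated primary, at -0.43 ± 0.15, -0.58 ± 0.14 and -0.52 ± 0.19 in the metastases, so it was at least 1.35-fold, 1.42-fold and 1.29-fold lower there. With Feature Extraction's own log ratio its values were -3.12, -3.77 and -3.19.

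The genes that modify, fold, trim, cross-link and bind collagen were read from lists of the pathway. Of 14 genes for prolyl and lysyl modification, 12 or 13 were measured and none was called in any direct comparison; P4ha2, a subunit of a prolyl hydroxylase, rose in the carbon-group against the unirradiated metastasis (1.21 ± 0.07). Of 7 genes for folding and export, Fkbp14, a prolyl isomerase of the endoplasmic reticulum, rose in the unirradiated metastasis (1.35 ± 0.08) and fell in the gamma and carbon groups against it, by 1.15 ± 0.02 and 1.19 ± 0.15. It thereby had the same calls as Col6a1 and Col6a2 in these comparisons, which share the unirradiated metastasis. Of 7 genes for procollagen processing, Adamts2, which removes the amino-terminal propeptide, rose in the unirradiated metastasis (1.15 ± 0.05), and Pcolce2, an enhancer of the carboxyl-terminal proteinase, fell in both irradiated primaries, by 1.13 ± 0.04 and 1.26 ± 0.04.

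Of 6 cross-linking genes, Tgm2, a transglutaminase, rose in all 3 metastases (3.66 ± 0.12, 2.75 ± 0.04 and 2.92 ± 0.06) and in the carbon-irradiated primary (1.77 ± 0.08). Lox, the lysyl oxidase that starts cross-links between fibrils, was at 0.83 ± 0.35 in the unirradiated metastasis with 1 array under the threshold, and fell in the gamma group (-1.52 and -1.47 on the arrays) and the carbon group (by 1.29 ± 0.04) against it. Loxl1 fell in the gamma group against it by 1.09 ± 0.03.

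Of 10 collagen receptors, Ddr2, the discoidin domain receptor of mesenchymal cells, rose in the unirradiated metastasis (1.38 ± 0.08), while Ddr1, that of epithelial cells, rose in the gamma-irradiated (1.18 ± 0.19) and carbon-irradiated primaries (1.86 ± 0.17). Itga11, an integrin subunit of fibroblasts for type I collagen, fell in the unirradiated and gamma-group metastases (-1.36 ± 0.11 and -1.41 ± 0.14). Lair1, an inhibitory collagen receptor of leukocytes, rose in the 3 metastases (2.40 ± 0.12, 1.34 ± 0.21 and 1.10 ± 0.10) and fell in the gamma and carbon groups against the unirradiated one. Macrophage markers rose for 9, 7 and 6 of 9 in the same metastases, and their part in the Lair1 values was not tested.

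The collagen-binding proteoglycans had the most calls of these lists. Of 7 genes, 6 were measured, and 3, 4 and 3 rose in the unirradiated, gamma-group and carbon-group metastases, where 10.4%, 8.8% and 8.19% of all features rose. Fmod, the gene of fibromodulin, fell in the gamma-group metastasis (-1.19 ± 0.21), and Bgn, that of biglycan, fell in the gamma group against the unirradiated metastasis by 1.23 ± 0.03. Dcn, the gene of decorin, rose in all 3 metastases (1.44 ± 0.10, 2.05 ± 0.06 and 1.18 ± 0.03), as did Ogn (2.48 ± 0.14, 1.59 ± 0.15 and 1.61 ± 0.14). Ogn rose in the carbon-irradiated primary too. Lum, the gene of lumican, rose in the unirradiated and gamma-group metastases. It fell in the carbon group against both of those metastases, by 1.23 ± 0.04 and 1.07 ± 0.10. Prelp, a proteoglycan that links basement membranes to the tissue below, rose in both irradiated primaries (2.97 ± 0.32 and 3.71 ± 0.27) and in the gamma-group and carbon-group metastases (1.52 ± 0.31 and 2.18 ± 0.29). Type I collagen, whose fibrils decorin and lumican coat, was not called in any of these RNAs.

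The arrays of carbon against gamma gave a second reading of the same difference. For the 31 genes measured, the ratio read directly differed from that computed through the unirradiated primary by -0.15 to 0.12 on the log2 scale, with a median size of 0.032. The carbon-irradiated primary had its largest positive differences from the gamma-irradiated one in Col9a3 (0.74 ± 0.31) and Col17a1 (0.70 ± 0.08) and its most negative in Col3a1 (-0.65 ± 0.06), all under 2-fold.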

How the data were processed

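Data of 6 RNAs on 12 arrays were read from the scanner files. Per the file headers, they were quantified with Agilent Feature Extraction 9.1.3.1 with its protocol GE2-v5_91_0806. For every spot and channel, the authors deposited the mean intensity and the median local background, neither of them normalized. The deposited log10 ratios are Cy5 over Cy3 after Feature Extraction's background and dye steps, per the file headers, and the authors' value table equals them within 0.005 with every array's median at 0.

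In R 4.3.3 with limma 3.58.1, background was corrected by normexp with an offset of 50, which draws ratios of dim spots toward 0, and each array was normalized by loess, in which controls had weight 0. Of 45018 spots, 43379 were not controls, 16 to 58 per array were flagged and left out, and none was saturated. The share well above background ran from 53.8% to 68.8% over the channels. Spots of a probe were averaged. Python 3.11.15 with pandas 2.3.3 computed log2 ratios turned by the dyes in the labels, their mean and their SD. The procedure was tested on simulated data.

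Named with values were all collagens called in a direct comparison, with Col1a1, Col1a2, Col3a1, Col4a1, Col4a2, Col7a1, Col17a1 and Col18a1. Neighbouring collagen genes are set side by side, and called genes are named from pathway lists, up to 4 per list. Col5a1, Col5a2, Col12a1 and other members outside that rule were chosen after their values were seen. The members and lists were chosen with earlier results of these data known. Alternatives to the background correction, normalization, filter, probe choice and threshold, and each array of a dye swap alone, were run on the same arrays. The number of arrays and RNAs limits the precision.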

Additional observations from a re-analysis of the deposited data

How the results depend on the processing

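No called value of a named collagen changed direction under any alternative run. Of 31 called values of the genes named by rule, which leave out the fall of Col5a2 between metastases, 13 lost the call with the mean of all probes, 11 with median centring, 3 with scaling between arrays and 1 each with Feature Extraction's processed log ratio and the authors' value table. None was lost with an offset of 0. By the rule for calls, none could be lost without the filter on dim probes or on either array alone. The same holds for the 28 that could be read with both RNAs above background, since their ratios were unchanged. Those settings therefore say nothing about how firm the calls are. Under the alternatives, 159 counts of calls stayed within 1.5 times and 39 moved. Metastases are named below without irradiation, gamma and carbon, all against the unirradiated primary unless stated.

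With median centring the higher counts were 1, 1 and 1 in the metastases, 1 and 3 in the gamma-irradiated and carbon-irradiated primaries, and 2 in the carbon against the gamma metastasis. Of all features, 1300 of 17229, 1055 of 17800 and 910 of 16391 were then higher in the metastases. In the primaries 233 of 15679 and 415 of 15740 were, and 40 of 17257 in the carbon against the gamma metastasis. Median centring moved the median of all features from 0.06 to -0.10 in the gamma metastasis and from 0.06 to -0.11 in the carbon one. The processed log ratio moved that of the unirradiated metastasis from 0.05 to -0.11. The processed log ratio and the value table each gave lower counts of 8, 6 and 5 in the metastases, 1 in the carbon-irradiated primary (Col19a1) and 5 in the gamma against the unirradiated metastasis, and a higher count of 2 in the carbon against the gamma metastasis. Over all features the processed log ratio gave, in the same order, lower counts of 881, 788, 520, 456 and 501 and a higher count of 135. The value table gave 878, 781, 518, 455 and 499 lower and 135 higher. An offset of 0 gave 5 lower in the gamma against the unirradiated metastasis, beside 373 of all 17478 features. Requiring both RNAs above background left 1 higher in each of the gamma and carbon metastases, beside 1325 of 15431 and 1092 of 14494 features. The mean of all probes gave 1 lower in the unirradiated and carbon metastases and in the carbon against the unirradiated metastasis, 0 higher in the gamma metastasis and 3 higher in the carbon-irradiated primary. The counts over all features were, in the same order, 250, 141 and 328 lower and 1301 and 485 higher. With a 1.5-fold rule the unirradiated metastasis had 7 higher and 5 lower, the gamma metastasis 4 and 7, the gamma-irradiated primary 5 higher, carbon against gamma in primaries 1 and 1, the gamma against the unirradiated metastasis 3 and 7, the carbon against the unirradiated metastasis 7 lower, and carbon against gamma in metastases 2 higher. In the same order, all features gave 2838 higher and 776 lower of 17229, 2772 and 667 of 17800, and 763 higher of 15679. They gave 401 and 172 of 15130 in the primaries set against each other, and 891 and 944 of 17478 in the gamma against the unirradiated metastasis. The last comparisons gave 1126 lower of 16852 and 217 higher of 17257. On single arrays the lower count of the gamma metastasis was 3 to 5 and the higher count of carbon against gamma in metastases 1 to 2. Over all features these were 274 to 290 and 50 to 73. The cause was not tested, except that the mean of all probes includes dim probes by construction.

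No paired analysis was possible because the groups share fewer than 2 replicate numbers. Slide could not be fitted as a block, since each dye swap lies within 1 slide. Signal over background limits Col4a3, Col4a5, Col10a1, Col19a1, Col22a1, Col25a1 and Col27a1.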

Other observations

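Probes of the same collagen gene did not always give the same ratio. For 18 of the collagen genes a second probe was measured in a direct comparison, which gave 97 pairs of values, and 11 of these pairs, in 5 genes, lay at least 1 apart on the log2 scale. The genes were Col3a1, Col4a4, Col4a6, Col16a1 and Col23a1. In Col4a4 and Col4a6 the dimmer probe had the higher ratio in all 3 metastases, and in Col3a1, Col16a1 and Col23a1 the brightest probe had the ratio farther from 0. In 2 of the 97 pairs the probes had opposite signs while 1 or both lay at least 1 from 0 on the log2 scale.

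Cilp, which encodes a matrix protein of cartilage and was chosen after its values were seen, fell in the unirradiated, gamma-group and carbon-group metastases, at -2.09, -1.91 and -2.02, beside the fall of Col11a1 in the same RNAs. Of the measured markers of cartilage, bone and tendon, Cilp included, 2 of 8, 1 of 8 and 1 of 7 fell there. The medians of that list were -0.271, -0.009 and 0.270, so most of it did not fall with Col11a1. Lung epithelial markers were above background in the unirradiated primary for between 2 and 12 of 12, depending on the array.

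Markers of 2 further cell types gave values beside these. Of 9 markers of smooth muscle and pericytes none rose in a metastasis, and 2, 2 and 1 fell in the unirradiated, gamma-group and carbon-group metastases, among them Des in each. Of 6 adipocyte markers 3, 4 and 2 were measured in these metastases, and 1, 3 and 1 rose. Adipoq, Cidec and Fabp4 rose in the gamma-group metastasis and were lower in the carbon group than in the gamma group.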
